A study of Rattus norvegicus with 6 samples.

Results

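The kinesin superfamily, the motor proteins that walk along or dismantle microtubules, was followed in RNA sequencing of a chondrosarcoma cell line and of rib tissue of the rat. Members were the table entries whose gene symbol, ignoring case, begins with Kif or Kifc followed by a digit. This gave 39 of 27217 entries, which carry 38 different symbols because Kif22 is listed under a main entry and a second, low one. RCS cells, a chondrocyte-like line grown from a rat chondrosarcoma, gave 3 libraries, and neonatal rat rib, a piece of tissue that can hold cartilage, bone, muscle, nerve and vessels, gave 3 libraries. Labels name no treatment, strain, genotype or sex for either group, and the replicates are called biological without the culture or animal they came from. Each p-value below reflects how much these libraries vary, which may be technical variation.

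Most kinesins have a motor domain that turns ATP hydrolysis into movement on a microtubule. Some dismantle microtubules instead, and a few have lost motor activity. In dividing cells one set builds the spindle, aligns chromosomes and completes cytokinesis, and most of these genes are transcribed as cells approach mitosis. Another set carries vesicles, organelles and RNA through the cytoplasm, above all in neurons. A further set works in cilia, where kinesin-2 hauls intraflagellar transport trains outward and Kif7 shapes hedgehog signalling, a pathway that chondrocytes use in the growth plate. By these known roles the 39 entries were sorted into 13 mitotic, 13 cargo transport, 8 ciliary and 5 other entries.

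Promoter windows, placed by the annotated start, are printed for 4 members, chosen because they carry the contrast the results turn on. Kif23, Kif4a and Kif11 are mitotic kinesins that were higher in RCS cells, and Kif13a is the transport kinesin with the largest difference. Sequences are those of RefSeq on the build GRCr8, from 250 bases before to 50 bases after the annotated start, written 5′ to 3′ on the strand of the gene. Capitals mark CCAAT (or ATTGG on the other strand) and TTTGAA (or TTCAAA), the cell cycle homology region motif known from promoters of mitotic genes.
Kif23, chr8:71320535-71320834, minus strand: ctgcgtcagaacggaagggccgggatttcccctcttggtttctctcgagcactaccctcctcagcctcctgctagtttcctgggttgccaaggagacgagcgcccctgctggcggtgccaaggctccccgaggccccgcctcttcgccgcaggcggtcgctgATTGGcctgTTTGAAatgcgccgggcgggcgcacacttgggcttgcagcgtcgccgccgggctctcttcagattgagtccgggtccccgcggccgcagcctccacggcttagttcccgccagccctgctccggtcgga
Kif4a, chrX:69761633-69761932, plus strand: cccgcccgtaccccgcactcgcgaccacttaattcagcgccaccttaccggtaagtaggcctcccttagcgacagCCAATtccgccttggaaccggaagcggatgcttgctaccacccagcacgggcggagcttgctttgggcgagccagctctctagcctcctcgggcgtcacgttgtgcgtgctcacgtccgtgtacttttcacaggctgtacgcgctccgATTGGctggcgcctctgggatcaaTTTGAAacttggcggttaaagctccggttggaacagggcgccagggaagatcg
Kif11, chr1:244536617-244536916, plus strand: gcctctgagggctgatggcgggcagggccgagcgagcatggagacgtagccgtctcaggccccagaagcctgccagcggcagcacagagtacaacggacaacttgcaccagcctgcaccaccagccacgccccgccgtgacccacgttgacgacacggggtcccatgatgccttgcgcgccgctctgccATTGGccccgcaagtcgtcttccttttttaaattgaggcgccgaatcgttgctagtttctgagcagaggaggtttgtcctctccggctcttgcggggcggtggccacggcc
Kif13a, chr17:17972603-17972902, plus strand: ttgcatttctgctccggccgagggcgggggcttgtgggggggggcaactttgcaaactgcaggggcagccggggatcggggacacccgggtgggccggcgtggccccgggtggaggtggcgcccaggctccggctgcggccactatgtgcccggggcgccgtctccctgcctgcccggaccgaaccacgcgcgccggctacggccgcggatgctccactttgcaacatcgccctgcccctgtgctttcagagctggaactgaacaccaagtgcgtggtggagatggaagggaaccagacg

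In the Kif23 promoter ATTGG began at base -88 from the start site and TTTGAA at base -79. In the Kif4a promoter the same pair began at -27 and -3, with a further CCAAT at -175. Kif11 held ATTGG at -61 without TTTGAA, and the Kif13a window held neither. The bases directly before the annotated start of Kif13a have the form of an intron end, and an open reading frame runs through those after it. That window may therefore lie at an inner exon and not at the promoter, so its lack of motifs is given no weight. It is among the 8 transport windows counted below. RefSeq promoters matched 28 of the 38 symbols. TTTGAA on either strand lay in 6 of 11 mitotic promoters (54.5%), 0 of 8 transport, 0 of 6 ciliary and 1 of 3 other promoters, against 18.3% of all 33469 promoters of the same length. CCAAT lay in 7 of 11 mitotic (63.6%), 1 of 8 transport, 3 of 6 ciliary and 1 of 3 other promoters, against 37.5% of all. Both motifs were present in 5 mitotic promoters, those of Kif22, Kif20b, Kif23, Kifc1 and Kif4a. A match is a description of the letters in this window and says nothing on binding.

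Levels are given as normalized counts, from values deposited on a log2 scale by the authors. The name of the deposited table carries RPKM, a per-length unit, but its low values share 1 step per library across genes, so they were read as read counts divided by 1 factor per library. On that reading gene length is not taken into account, so one gene's level is not read as above or below another's. Ratios and shares of genes or classes are read only for their change between the groups. Differences are RCS cells minus rib tissue on the log2(normalized count + 1) scale, tested with limma over all 16809 tested genes, with a call made where the adjusted p (Benjamini-Hochberg) lay under 0.05. If 1 step is 1 read, counted reads came to an estimated 6000000 to 8520000 per RCS library and 5320000 to 7490000 per rib library. Cartilage markers were high in both groups but were not all alike, and calls among the 11 listed went both ways. For RCS cells, 3 of them were called down and 2 up, while 6 had no call. Acan, without a call, stood at 12430 to 18530 normalized counts in RCS cells, against 11000 to 15200 in rib tissue. Col2a1 had the largest fall, at 10780 to 16800 in RCS cells, against 55600 to 112900 in rib tissue (difference -2.615). Matn1 had the largest rise (difference 1.699). Markers of other tissues differed widely. The 11 skeletal muscle markers summed to 209 to 257 normalized counts in RCS cells, against 29050 to 52670 in rib tissue. In rib tissue, fewer cells of a type and less RNA per cell cannot be told apart. The median gene differed by -0.15, and that median moved by 0.43 under quantile normalization, 0.33 under scaling to the same total and 0.18 under cyclic loess.

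Of the 39 entries, 38 were tested, and each of these was above 0 in all 6 libraries. Kif2b, a microtubule depolymerase gene, was listed at 0 in every library. Higher in RCS cells were 22, lower were 10, and 6 passed in neither direction. Over all tested genes 32.9% were called higher and 43.6% lower. The median difference was 0.89 for the 38 kinesins and -0.15 for all tested genes. Without the mitotic class, 25 kinesins were tested, of which 9 were higher, 10 lower and 6 neither, with a median difference of 0.11. At least 2-fold, 16 kinesins were higher and 5 lower, against 14.1% and 33.1% of all genes. Under scaling to the same total 26 were higher and 7 lower, with all genes at 7366 and 6118, and under quantile normalization 26 and 8, with all genes at 7785 and 5522.

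**Figure D1:**
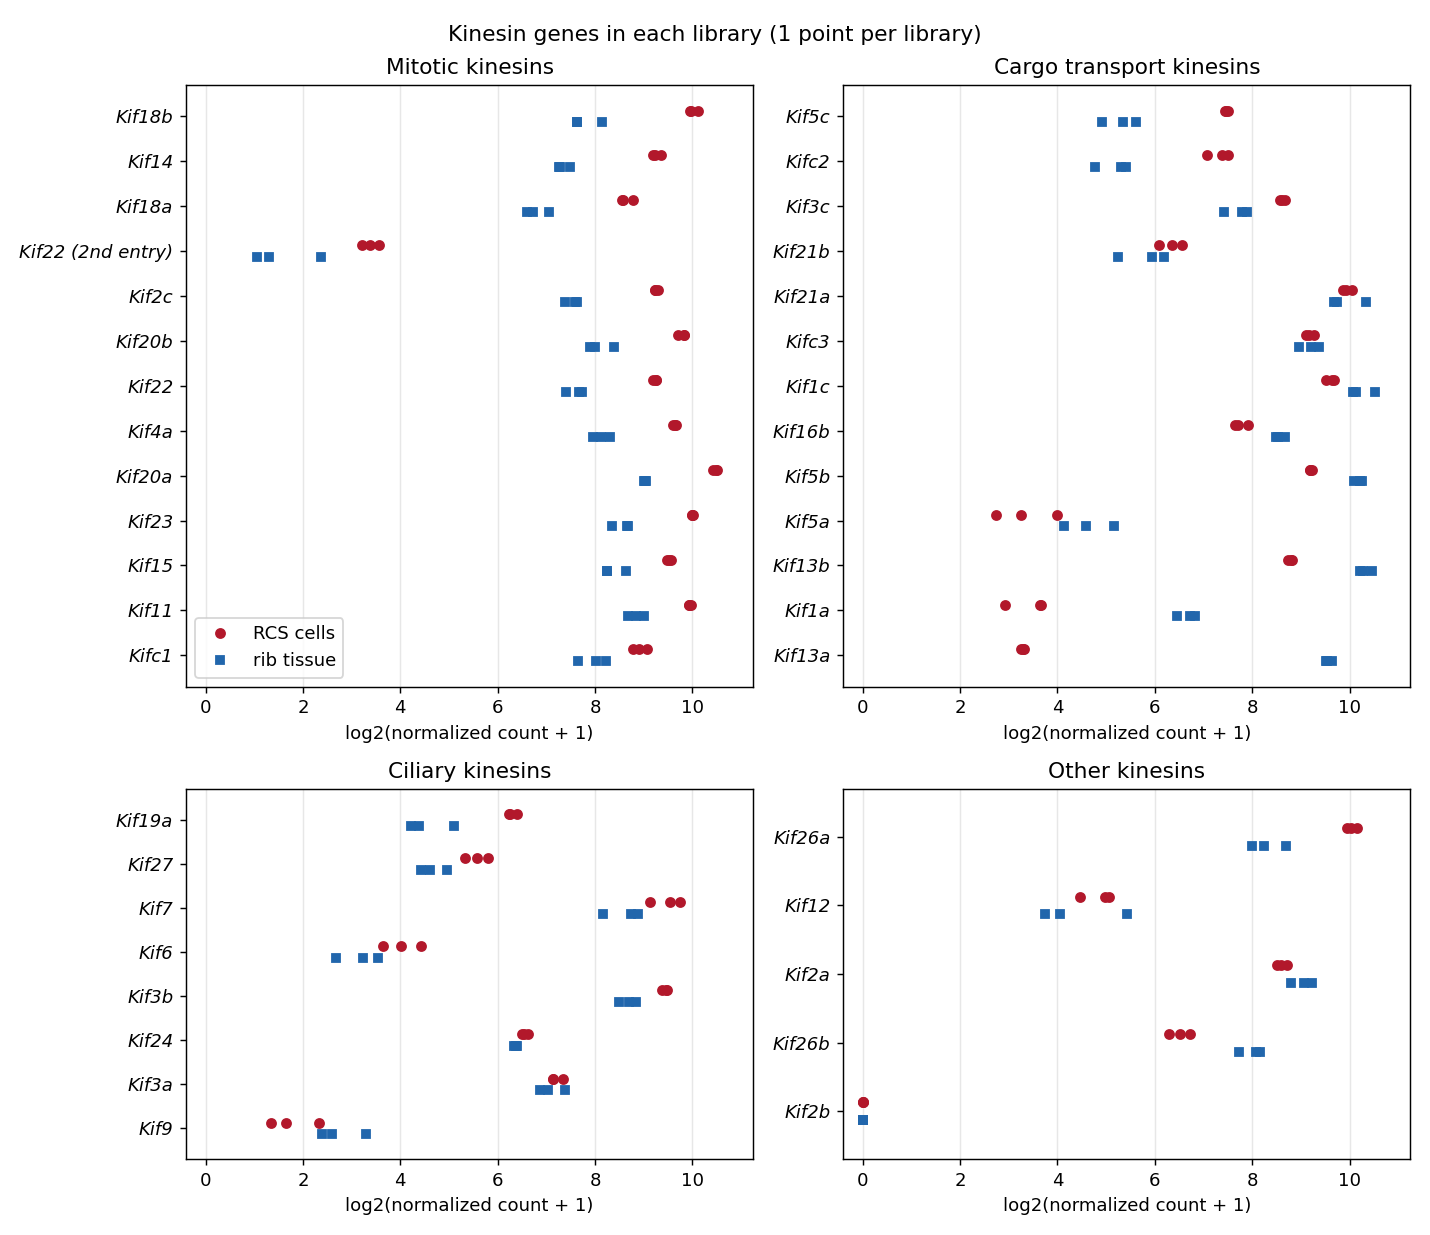
Level of each kinesin as log2(normalized count + 1), with 1 point per library (red circles, 3 RCS libraries; blue squares, 3 rib libraries) and genes ordered within each class by their difference. All 13 mitotic entries have their RCS points to the right of their rib points, while Kif13a and Kif1a stand far to the left in RCS cells and Kif2b is at 0 in every library.

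All 13 mitotic entries were higher in RCS cells, 12 of them at least 2-fold. Kif2a, a depolymerase of interphase and spindle that was sorted with the other kinesins, was lower (difference -0.42). The groups did not overlap at any of the 13, with RCS cells higher, as at 34.4% of all tested genes. The median difference was 1.62 and the range 0.95 to 2.22. Each entry was called higher in all 17 alternative fits it entered, and the second Kif22 entry was the only one removed by a filter of 10 normalized counts. Replicates lay close together, with a median SD of 0.04 in RCS cells and 0.18 in rib tissue (log2, n = 3 each).

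Kif18b, which limits the length of astral microtubules, had the largest difference of the class. It stood at 1104, 995 and 1007 normalized counts in RCS cells replicates 1 to 3 and at 280.0, 197 and 198 in rib tissue replicates 1 to 3. Every RCS library was above every rib library, 4.65-fold on the tested scale (difference 2.22, SE 0.14, limma adjusted p 2.27e-06). Kif14, which brings citron kinase to the midbody, was next, at 649.8, 597 and 586 normalized counts in RCS cells and 153, 179.5 and 155 in rib tissue. Its libraries separated in the same way, 3.75-fold (difference 1.91, SE 0.095, limma adjusted p 6.11e-07).

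Kinesins of the central spindle, where the cleavage furrow forms, were higher too. Kif20a, which carries the chromosomal passenger complex there, stood at 1380, 1449 and 1423 normalized counts in RCS cells and 517, 524.5 and 510.3 in rib tissue. Both groups were tight and far apart, 2.74-fold (difference 1.45, SE 0.067, limma adjusted p 4.18e-07). Kif23, the motor subunit of centralspindlin, had 1032, 1013 and 1011 normalized counts in RCS cells and 404, 406 and 325 in rib tissue, with rib replicate 3 the lowest. It was 2.70-fold higher (difference 1.43, SE 0.10). Kif4a, a chromokinesin that works with Prc1 on overlapping microtubules, differed by 1.502 (SE 0.097, 2.83-fold), and Kif20b, an abscission factor, by 1.70 (SE 0.13, 3.24-fold).

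Kif11, the motor that pushes spindle poles apart, stood at 1005, 970.3 and 969.5 normalized counts in RCS cells and 457, 513 and 409 in rib tissue. No library overlapped, and at 2.14-fold (difference 1.10, SE 0.094, limma adjusted p 1.29e-05) the gap was among the smaller ones of the class. Kif15, which can share the work of Kif11, differed by 1.145 (SE 0.12, 2.21-fold). Kifc1, a minus-end motor that focuses spindle poles, had the smallest difference, 0.95 (SE 0.15, 1.93-fold, limma adjusted p 0.000534). Its levels were 534, 476 and 438 in RCS cells and 299, 259 and 199.5 in rib tissue, so the lowest RCS library was still above the highest rib library.

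Genes that act on chromosomes and microtubule ends lay between these. Kif18a, which damps chromosome oscillation, was 3.58-fold higher, Kif2c, a depolymerase at centromeres, 3.29-fold, and the chromokinesin Kif22 3.08-fold. The second Kif22 entry stood at 9.38, 10.9 and 8.33 normalized counts in RCS cells and 1.08, 4.21 and 1.46 in rib tissue. It also was higher (difference 1.81, SE 0.39, limma adjusted p 0.00291), but reads shared with the main entry could fall on either. RefSeq also lists the pseudogenes Kif4b, Kif11-ps1 and Kif18b-ps1, and how the authors handled multiply matching reads is not given in the sources used here.

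Proliferation markers were higher as well, by amounts that varied more than those of this class. All 13 of them were called higher in RCS cells, against 32.9% of all tested genes, with a median difference of 1.37. Mki67 had the smallest difference (0.52), below every mitotic kinesin (0.95 to 2.22), and Mcm3 the largest (2.55), above every one. The markers summed to 14750 to 17000 normalized counts in RCS cells, against 5774 to 6668 in rib tissue. The log2 ratio of summed mitotic kinesins to summed proliferation markers inside a library was -0.72 ± 0.086 in RCS cells and -0.91 ± 0.038 in rib tissue (SD, n = 3 each). The 3 RCS values (-0.80, -0.74 and -0.63) lay above the 3 rib values (-0.93, -0.865 and -0.93). The part of the number of cycling cells in the differences was not tested.

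**Figure D2:**
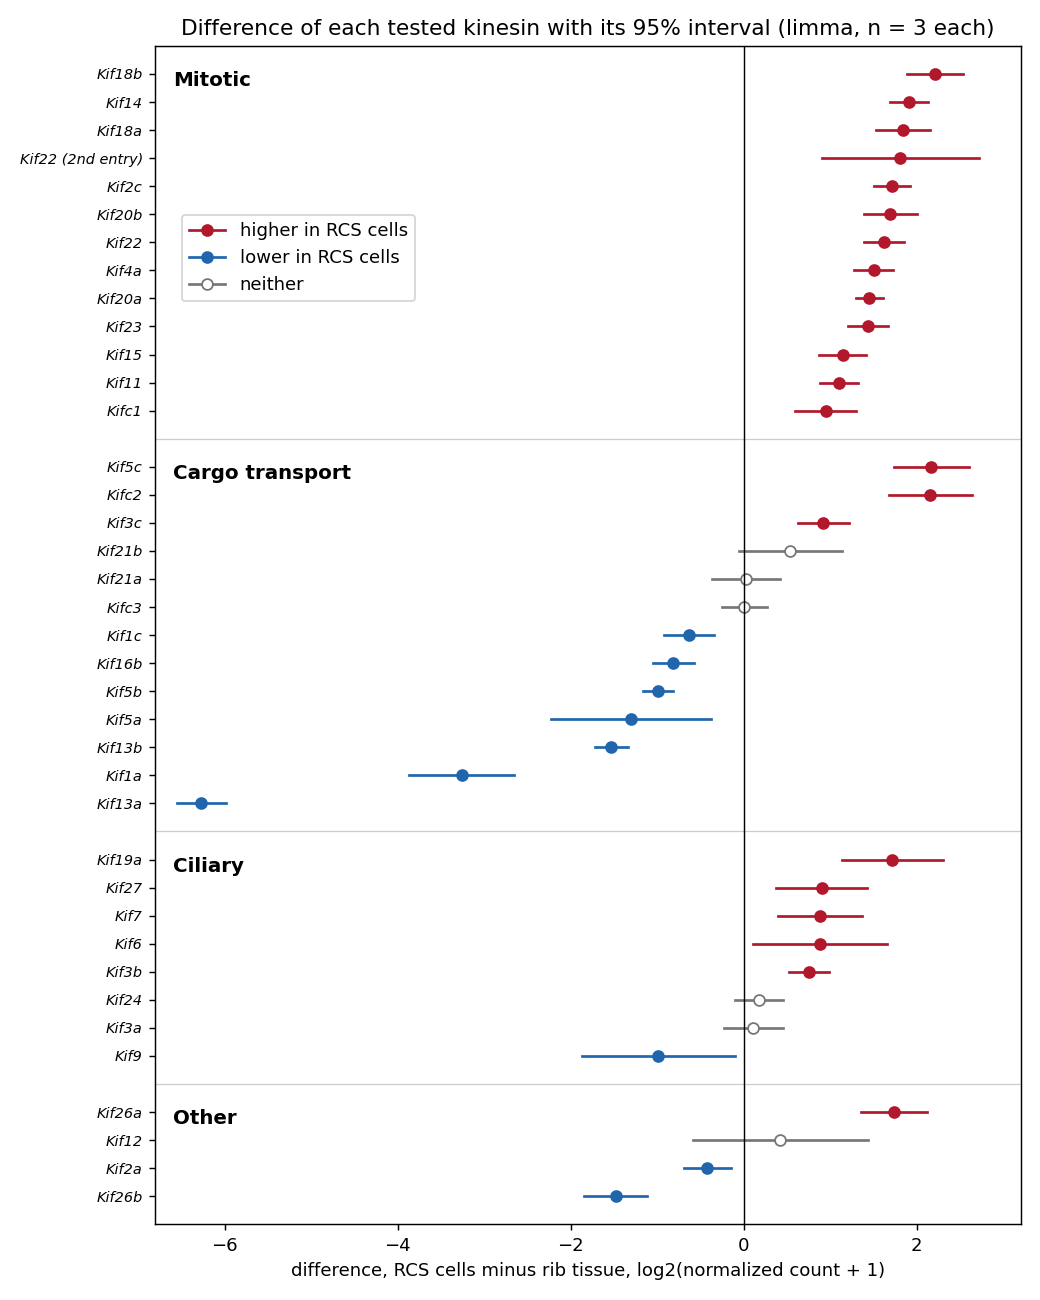
Difference of each tested kinesin, RCS cells minus rib tissue on the log2(normalized count + 1) scale, with its 95% interval from limma (n = 3 each), grouped by class. Filled red marks a call higher, filled blue a call lower and open grey neither, and the mitotic class lies wholly above 0 while the transport class reaches from 2.17 down to -6.27.

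Cargo transport kinesins were split. Of 13 tested, 7 were lower in RCS cells, 3 were higher and 3 passed in neither direction, with a median difference of -0.63. The shares over all tested genes were 43.6% lower and 32.9% higher. At least 2-fold, 4 of the 13 were lower and 2 higher, against 33.1% and 14.1% of all tested genes. The groups did not overlap at 7 members with rib tissue higher, as at 44.5% of all tested genes. Under quantile normalization 4 were higher and 6 lower with a median of 0.10, where all genes had 7785 higher and 5522 lower. Under scaling to the same total 5 were higher and 6 lower with a median of -0.29, where all genes had 7366 and 6118.

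Kif13a, which moves recycling endosomes toward the cell surface, had the largest difference of the superfamily. It stood at 8.852, 8.999 and 8.503 normalized counts in RCS cells and 794, 742 and 727 in rib tissue. The level was low but above 0 in every RCS library, while all rib libraries were high (difference -6.27, SE 0.12, limma adjusted p 1.21e-08). Kif13b, its closest relative, was lower too but stayed abundant, at 447, 444 and 427 normalized counts in RCS cells and 1184, 1236 and 1398 in rib tissue. Rib tissue was 2.89-fold above RCS cells (difference -1.53, SE 0.084). The log2 ratio of Kif13a to Kif13b was -5.49 ± 0.017 in RCS cells and -0.75 ± 0.18 in rib tissue (SD, n = 3 each). RefSeq lists a pseudogene of Kif13a, which could share reads with it.

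Genes that neighbour Kif13a on chromosome 17 were looked up after its values were seen, 5 on each side in the gene order of RefSeq GRCr8, of which 8 had an entry. They went both ways, 4 lower and 4 higher. Directly beside Kif13a, Nhlrc1, a ubiquitin ligase gene, was at 0 in all 3 RCS libraries but stood at 24.3, 17.8 and 12.96 normalized counts in rib tissue. Tpmt, the next gene out, was higher, at 108, 122 and 140.3 normalized counts in RCS cells and 33.7, 47.8 and 39.3 in rib tissue. On the other side Nup153, a nuclear pore gene, stood at 1423, 1318 and 1176 in RCS cells and 1068, 1080 and 1116 in rib tissue (difference 0.26, SE 0.088). Further out, Cap2, an actin regulator best known from muscle, was at 1.09, 1.30 and 1.42 in RCS cells and 395, 422 and 163 in rib tissue.

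**Figure D3:**
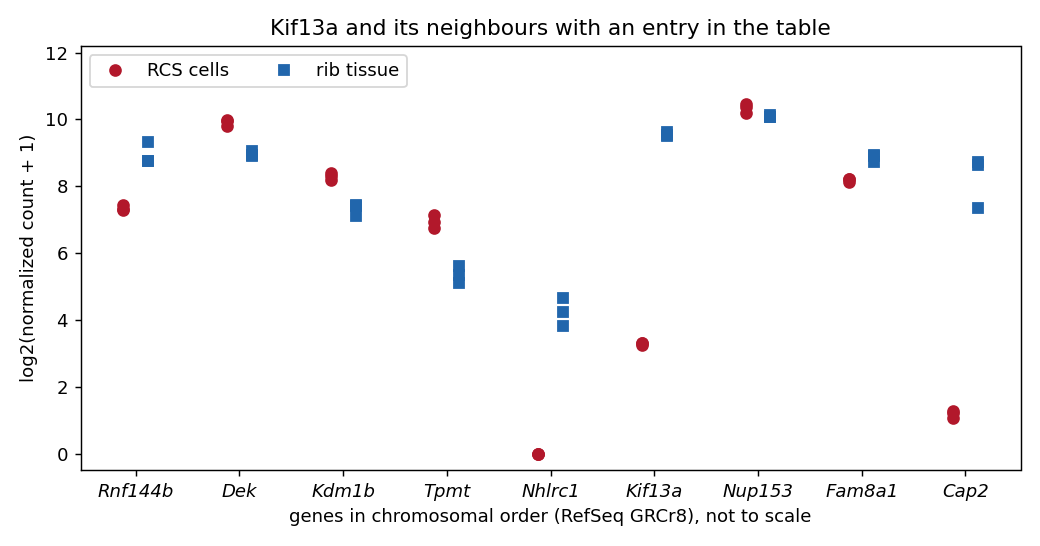
Kif13a and the 8 neighbouring genes with an entry, in chromosomal order on the x axis and not to scale, as log2(normalized count + 1) on the y axis with 1 point per library (red circles, RCS cells; blue squares, rib tissue). Nhlrc1, Kif13a and Cap2 are at or near 0 to 3.3 in RCS cells, while Dek, Kdm1b, Tpmt and Nup153 are higher there than in rib tissue.

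Kif1a, the neuronal motor of synaptic vesicle precursors, was the other member that nearly vanished. It stood at 6.53, 11.4 and 11.7 normalized counts in RCS cells and 86.3, 112 and 105 in rib tissue, with every rib library several times above every RCS library (difference -3.26, SE 0.26, limma adjusted p 8.81e-06). Markers of nerve were examined beside it. Of 8 Schwann cell markers 7 were lower in RCS cells and 1 higher, and the list summed to 426 to 493 normalized counts in RCS cells, against 1721 to 2501 in rib tissue. Of 12 neuron markers 7 were listed at 0 in every RCS library and 3 in every rib library, and they summed to 962 to 1113 in RCS cells, against 463 to 589 in rib tissue, a sum led by Map2. Of the 4 neuron markers tested, Map2 was higher (difference 1.245), Gap43 (-1.35) and Tubb3 (-1.29) were lower, and Syt1 passed in neither direction (-0.099). Stmn2, Nefm and Rbfox3, which define neurons, were at 0 in all 6 libraries. The part of nerve in the Kif1a difference was not tested.

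The kinesin-1 heavy chains, which carry mitochondria, vesicles and RNA with the help of light chains, moved in opposite directions. Kif5b, the form found in most tissues, stood at 599, 579 and 580.2 normalized counts in RCS cells and 1222, 1189 and 1086 in rib tissue. It was lower without overlap, and rib tissue was 1.98-fold above RCS cells (difference -0.99, SE 0.075, limma adjusted p 6.4e-06). Kif5c, best known from neurons, was higher, at 180.5, 173 and 174 normalized counts in RCS cells and 48.2, 29.3 and 39.7 in rib tissue. That made 4.501-fold (difference 2.17, SE 0.19). The log2 ratio of Kif5c to Kif5b was -1.73 ± 0.004 in RCS cells and -4.89 ± 0.35 in rib tissue (SD, n = 3 each). Kif5a, the third form, was low in both groups, at 5.69, 8.46 and 14.9 normalized counts in RCS cells and 23.2, 34.7 and 16.5 in rib tissue. Its call (difference -1.30, SE 0.40, limma adjusted p 0.0164) was lost under scaling to the same total (-0.986), without RCS cells replicate 1 and without rib tissue replicates 1 or 2 (-1.01, -1.32 and -1.04), and its sign turned under quantile normalization and cyclic loess (0.81 and 0.21).

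Other vesicle motors were lower by smaller amounts. Kif1c, a relative of Kif1a found in most tissues, stood at 817, 794 and 730.5 normalized counts in RCS cells and 1470, 1120 and 1073 in rib tissue, with rib replicate 1 the highest (difference -0.63, SE 0.125, limma adjusted p 0.00175). Kif16b, a motor of early endosomes, was lower, rib tissue being 1.76-fold above RCS cells (difference -0.81, SE 0.10). For Kif1c, too, RefSeq lists a pseudogene.

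Kifc2, a minus-end motor best known from neurons, and Kif3c, a kinesin-2 subunit also best known from neurons, were higher. Kifc2 had 133.5, 165 and 181 normalized counts in RCS cells and 41.2, 38.7 and 26.5 in rib tissue, 4.46-fold (difference 2.16, SE 0.21, limma adjusted p 2.54e-05). Kif3c was 1.89-fold higher (difference 0.92, SE 0.13).

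Kif21a and Kif21b, which restrain microtubule growth, and Kifc3, a minus-end motor of junctions and Golgi, did not pass the test. Kif21a stood at 1060, 965.7 and 935 normalized counts in RCS cells and 850.1, 817 and 1300 in rib tissue, and rib replicate 3 made the groups overlap (difference 0.028, 95% interval -0.36 to 0.42). Without that library it was called higher, at 0.24. Kifc3 differed by 0.008 (interval -0.25 to 0.27), called higher at 0.35 under scaling to the same total. Kif21b differed by 0.54 (interval -0.056 to 1.13), called at 0.74 without rib tissue replicate 1, 1.53 under quantile normalization, 0.87 under scaling to the same total and, at the same 0.54, with a replicate block.

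Ciliary kinesins were mostly higher in RCS cells. Of 8 tested, 5 were higher, 1 was lower and 2 passed in neither direction, with a median difference of 0.82 and 1 member past 2-fold. The shares over all tested genes were 32.9% higher and 43.6% lower, with 14.1% higher by at least 2-fold. Under quantile normalization and scaling to the same total 7 ciliary kinesins were higher and 0 lower, with all genes at 7785 and 5522 and at 7366 and 6118. The subunits of heterotrimeric kinesin-2, the outward motor of intraflagellar transport, did not move alike. Kif3b stood at 709, 663 and 698 normalized counts in RCS cells and 359, 415.5 and 456 in rib tissue, higher without overlap (1.69-fold, difference 0.75, SE 0.099, limma adjusted p 0.000164). Its partner Kif3a stood at 160.5, 140.2 and 140.6 in RCS cells and 130.4, 165 and 116 in rib tissue, where the groups overlapped (difference 0.11, interval -0.23 to 0.45). It was called at 0.45 under scaling to the same total. Kifap3, the subunit that links the motor to cargo, was looked up beside them for that role and differed by 0.205 (interval -0.006 to 0.42).

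Kif7, which acts at the ciliary tip in hedgehog signalling, was higher, at 862, 741 and 563 normalized counts in RCS cells and 472, 285 and 424 in rib tissue. The spread was wide in both groups but did not overlap (1.84-fold, difference 0.88, SE 0.21, limma adjusted p 0.00509). Its close relative Kif27, tied to motile cilia, stood at 46.8, 39.4 and 54.6 in RCS cells and 20.6, 23.6 and 30.0 in rib tissue (1.87-fold, difference 0.90, SE 0.23). RefSeq lists a Kif27-like gene that could share its reads.

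Kif19a, which trims motile cilia by depolymerizing their microtubules, had the largest difference of the class. It stood at 74.8, 83.4 and 73.7 normalized counts in RCS cells and 20, 33.15 and 17.7 in rib tissue, all RCS libraries well above all rib libraries (3.29-fold, difference 1.72, SE 0.25, limma adjusted p 0.000311). RefSeq lists the genes Kif19 and Kif19b, neither of them matched to an entry, so the Kif19a entry could hold reads of either. Kif24, which keeps centrioles from growing cilia, stood between 89.0 and 97.0 in RCS cells and between 80 and 83.5 in rib tissue. That gap was small (0.18, interval -0.098 to 0.46) and was called under quantile normalization (0.85) and scaling to the same total (0.52).

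Kif6 and Kif9, motors of the motile axoneme, were low in both groups. Kif9 stood at 4.05, 1.56 and 2.13 normalized counts in RCS cells and 5.09, 8.86 and 4.22 in rib tissue (difference -0.99, SE 0.38, limma adjusted p 0.0441). That call was lost with a replicate block, without a filter, with pseudocounts of 0.1 and 10, under scaling to the same total and without RCS cells replicates 2 or 3 or rib tissue replicates 1 or 2 (-1.24 to -0.35 over these), and the sign turned under quantile normalization and cyclic loess (1.64 and 1.10). Kif6 stood at 15.2, 11.5 and 20.5 in RCS cells and 8.40, 10.7 and 5.42 in rib tissue (difference 0.88, SE 0.335, limma adjusted p 0.0406), a call lost without RCS cells replicates 1 or 3 and without rib tissue replicates 1 or 3 (0.64 to 0.92), with array weights (0.48), a replicate block (0.88) and a pseudocount of 0.1 (0.95).

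Markers of motile cilia did not move one way. Of 8 tested, 3 were higher in RCS cells (Dnai2, Rsph1 and Ccdc40) and 4 lower (Dnah5, Dnah9, Dnai1 and Hydin). The 10 in the table summed to 783 to 843 normalized counts in RCS cells, against 386 to 548 in rib tissue. Dnai2 and Ccdc39 led both sums. Rsph4a and Spag6 were at 0 in all 6 libraries, and Dnah5 in every RCS library.

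Outside these classes, Kif26a and Kif26b, relatives that have lost motor activity, moved in opposite directions. Kif26a stood at 1134, 1042 and 982 normalized counts in RCS cells and 412, 300.0 and 253 in rib tissue, higher without overlap (3.33-fold, difference 1.735, SE 0.165, limma adjusted p 2.38e-05). Kif26b was lower, at 90.7, 104.5 and 77.1 in RCS cells and 283, 211 and 270.3 in rib tissue, where the level was 2.79-fold that of RCS cells (difference -1.48, SE 0.16). The log2 ratio of Kif26a to Kif26b was 3.53 ± 0.19 in RCS cells and 0.32 ± 0.36 in rib tissue (SD, n = 3 each).

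Kif2a, a depolymerase of interphase and spindle, was lower, at 386, 365 and 420.2 normalized counts in RCS cells and 445, 599.5 and 534 in rib tissue (rib tissue 1.34-fold above RCS cells, difference -0.42, SE 0.12, limma adjusted p 0.0112). The call was lost under scaling to the same total (-0.081). Kif2c, its mitotic relative, was higher. Kif12 stood at 32.4, 21.1 and 30.3 in RCS cells and 15.6, 12.3 and 42.2 in rib tissue, where rib replicate 3 was the highest of all 6. It passed in neither direction (0.42, interval -0.59 to 1.44) and was called higher without that library (0.94), under quantile normalization (2.175) and under cyclic loess (1.55).

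The classes were also set against each other inside each library, where a scaling factor cancels. Summed normalized counts of all kinesins were 17932, 17159 and 16978 in RCS cells and 12696, 12258 and 12305 in rib tissue. Mitotic kinesins made up 54.4%, 55.0% and 56.1% of that sum in RCS cells and 27.2%, 29.9% and 24.6% in rib tissue. Cargo transport kinesins made up 25.4%, 25.7% and 25.3% in RCS cells and 55.0%, 52.6% and 57.3% in rib tissue. In RCS cells the mitotic class thus held the larger share of counts in every library and in rib tissue the transport class did. Gene length enters these shares, so only their change between the groups is read. Ciliary kinesins held 9.67% to 11% in RCS cells, against 8.35% to 9.22% in rib tissue.

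The log2 ratio of mitotic to transport sums was 1.11 ± 0.029 in RCS cells and -1.02 ± 0.20 in rib tissue (SD, n = 3 each), which differ by 2.13. That of mitotic to ciliary sums was 2.42 ± 0.11 in RCS cells and 1.635 ± 0.21 in rib tissue, which differ by 0.785. Transport over ciliary sums gave 1.31 ± 0.089 in RCS cells and 2.65 ± 0.017 in rib tissue. None of the 3 ratios overlapped between the groups. They are given without a test, since the members were chosen with results of these data known, and long genes weigh more in a sum.

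**Figure D4:**
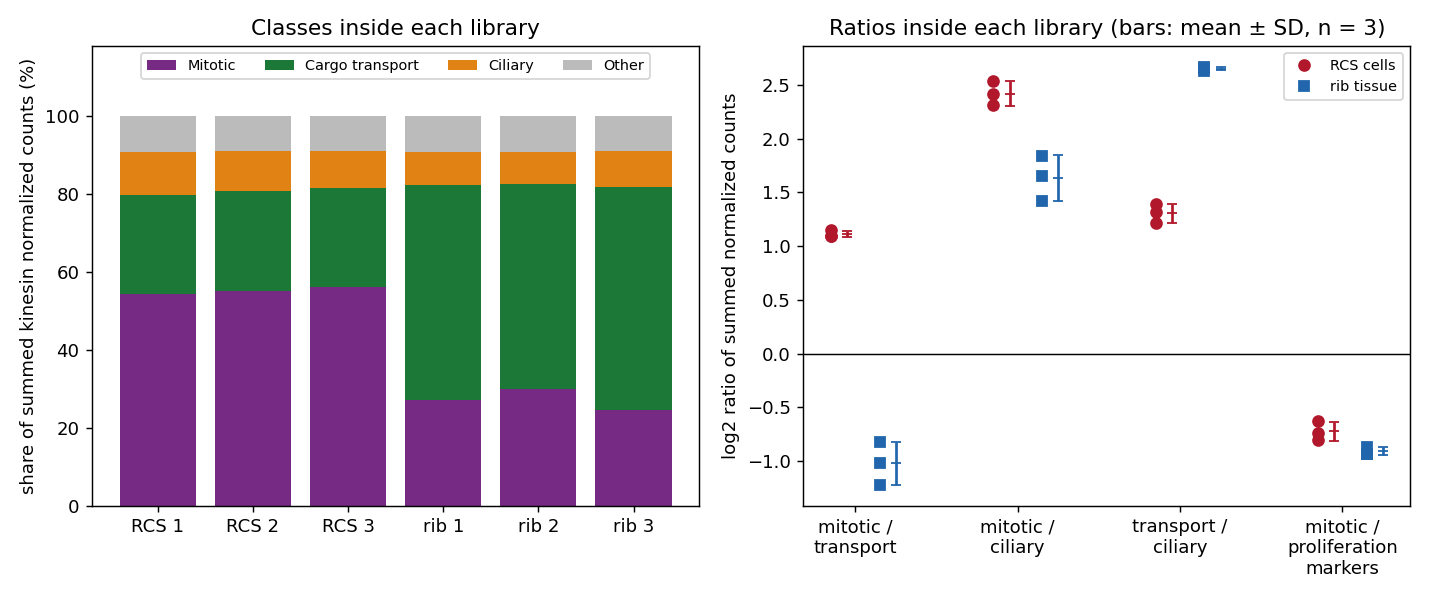
Left, share of the summed kinesin normalized counts held by each class in each library (%). Right, log2 ratios of summed normalized counts inside each library (red circles, RCS cells; blue squares, rib tissue; bars, mean ± SD, n = 3), where mitotic over transport lies near 1.11 in RCS cells and -1.02 in rib tissue.

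Partners of the mitotic kinesins moved like the motors. Of 18 tested, 17 were higher and 1 was lower, with a median difference of 1.69, against 32.9% higher and 43.6% lower over all tested genes. Cenpe, the kinesin-7 of the kinetochore whose symbol lies outside the naming rule, stood at 1423, 1290 and 1148 normalized counts in RCS cells and 469, 535 and 444 in rib tissue (difference 1.41, SE 0.11, limma adjusted p 6.11e-06). Prc1, the bundler that recruits Kif4a, stood at 1372, 1351 and 1289 in RCS cells and 530.0, 550.5 and 429 in rib tissue (difference 1.42, SE 0.10). Mad2l1, a spindle checkpoint gene, had the largest difference (2.295, SE 0.10). Racgap1, which forms centralspindlin with Kif23 and was chosen for that role after its values were seen, differed by 1.41 (SE 0.17).

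The exception was Cit, which encodes citron kinase, the partner of Kif14 at the midbody. It stood at 424, 345 and 305.5 normalized counts in RCS cells and 959, 1005 and 1327 in rib tissue (difference -1.61, SE 0.16, limma adjusted p 2.69e-05). Kif14 and Cit thus separated the groups without overlap in opposite directions.

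Of 16 light chain and cargo adaptor genes, 5 were higher, 5 lower and 6 neither, with a median difference of -0.07. Over all tested genes 32.9% were higher and 43.6% lower, so the share called higher was near that of all genes. Klc2, a kinesin-1 light chain, was higher, at 536, 522.5 and 437 normalized counts in RCS cells and 324, 227 and 248 in rib tissue (difference 0.91, SE 0.145). Arl8b, which couples kinesin-1 to lysosomes, was higher by 0.52 (SE 0.082). Map7, which recruits kinesin-1 to microtubules, was at 0 in all 3 RCS libraries but at 8.43, 12.4 and 9.74 normalized counts in rib tissue. Trak2, a mitochondrial adaptor, differed by 0.021 (SE 0.083), with a sign that turned under median scaling (-0.031). The split of calls followed the scaling, with 8 higher and 5 lower under quantile normalization and under scaling to the same total and 2 higher and 7 lower under cyclic loess, where all genes had 6242 and 6206. Leaving out any single RCS library or rib tissue replicate 3 left 3 higher.

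Of 22 intraflagellar transport genes, 11 were higher, 4 lower and 7 neither, with a median difference of 0.27, against 32.9% higher and 43.6% lower over all tested genes. The split was 7 and 7 under cyclic loess, with all genes at 6242 and 6206, and 14 and 2 under scaling to the same total, with all genes at 7366 and 6118. The subunits of the return motor, dynein-2, went apart. Dync2h1, its heavy chain, stood at 361, 345 and 270.2 normalized counts in RCS cells and 673, 736 and 859 in rib tissue (difference -1.22, SE 0.135). Dync2li1, a light intermediate chain, was higher, at 200, 196 and 209 in RCS cells and 53.7, 72.7 and 81.4 in rib tissue (difference 1.55, SE 0.16). Ift172, a train subunit, differed by -0.062 (SE 0.11), a sign that turned under quantile normalization (0.013) and scaling to the same total (0.279).

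Cytoplasmic dynein and dynactin, the motor that runs opposite to most kinesins, had 12 of 23 genes higher, 5 lower and 6 neither, with a median difference of 0.25, against 32.9% higher and 43.6% lower over all tested genes. Under both quantile normalization and scaling to the same total the split was 17 and 2, with all genes at 7785 and 5522 and at 7366 and 6118. Dync1h1, the heavy chain, was lower, at 3395, 2814 and 2720 normalized counts in RCS cells and 5044, 4380 and 4293 in rib tissue (difference -0.62, SE 0.12). The call was lost under cyclic loess (-0.23) and turned under quantile normalization (0.26). Dync1i1, an intermediate chain, was higher, at 317, 343 and 354.5 in RCS cells and 110.1, 115 and 119 in rib tissue (difference 1.55, SE 0.093). Pafah1b1, the dynein regulator Lis1, was lower by a small margin (difference -0.29, SE 0.072), with its sign turned under quantile normalization (0.035) and scaling to the same total (0.048).

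**Figure D5:**
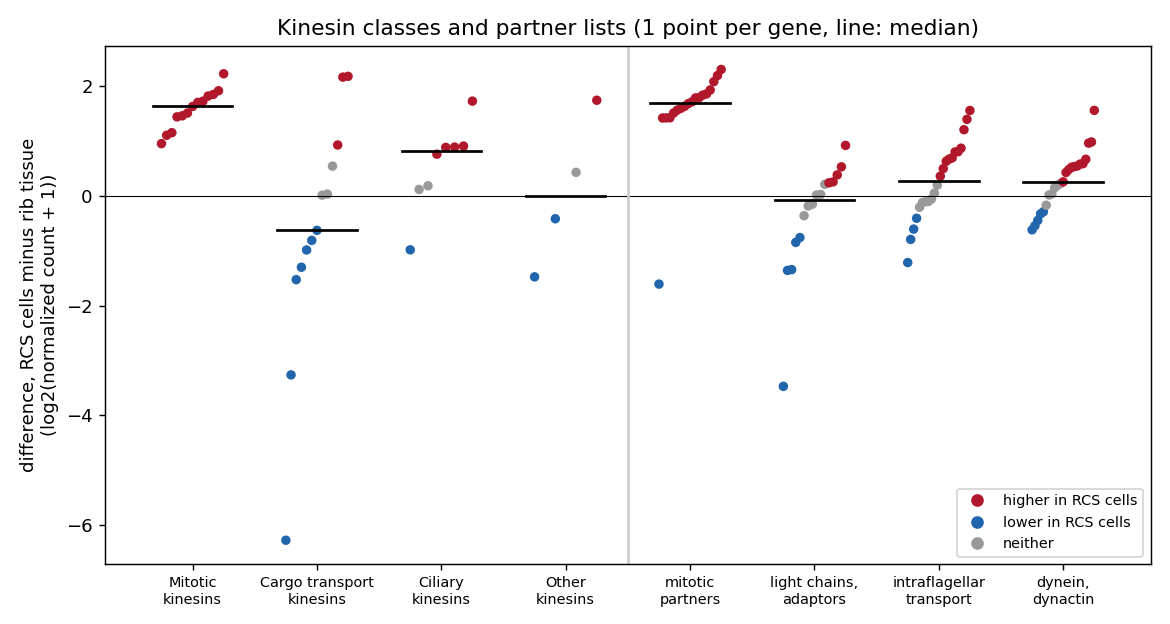
Differences of the tested genes in the 4 kinesin classes and the 4 partner lists, RCS cells minus rib tissue on the log2(normalized count + 1) scale, with 1 point per gene and a line at each list's median (red, called higher; blue, called lower; grey, neither). The mitotic kinesins (median 1.62) and their partners (1.69) lie above 0 but for Cit. Ciliary kinesins lie above 0 but for Kif9, while the other lists spread to both sides of 0.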

How the data were processed

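RNA sequencing of 3 RCS and 3 rib libraries was analysed from 1 table of log2 values deposited by the authors. The name of the table carries RPKM and DEseq. The most frequent low values of each library were multiples of 1 step shared by genes of any length, so the values were read as log2 of a read count over 1 factor per library, not per gene length. Only 38.6% to 54.6% of the low values (up to 10 steps) came within 0.01 of whole steps, depending on the library. The other values lay between steps, for a reason not given in the sources used here, so the reading is not certain and no count model was used. CASAVA 1.8, DESeq and rn5 are named, with no role, in the submitters' processing notes. No aligner, counting rule or strand use is given in the sources used here. Values were returned to normalized counts (1 step was worth 0.519 to 1.03) and tested on the log2(normalized count + 1) scale by limma 3.58.1 under R 4.3.3 (intensity trend, two-sided, Benjamini-Hochberg), on 16809 genes with at least 1 in at least 3 libraries. Simulated data were used to check the test.

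Of 172 partner and marker names, 163 matched by symbol, 2 by capitals and 3 through Entrez identifiers (RefSeq, GRCr8), and 4 did not match. Of 17717 Entrez identifiers 17258 matched. Values in every library were given for the 3 most abundant and the 2 most raised and lowered called members of each class, and for the 2 most abundant and the most raised and lowered called genes of each partner list; others were added after their values were seen. Members and lists were chosen with earlier results of these data known. Correlations were 0.969 to 0.994 between libraries of the same group and 0.65 to 0.69 across groups, and 0 pairs were identical.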

Additional observations from a re-analysis of the deposited data

How the results depend on the processing

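Of the 32 kinesin calls, 29 to 32 were kept in direction and side of the threshold over 17 alternative fits. Those lost belonged to Kif5a, Kif6, Kif9 and Kif2a, or to entries removed by a filter of 10. The balance of mitotic over transport sums stood at 2.03 to 2.23 without single libraries, 2.09 under quantile normalization, 2.045 under cyclic loess and 2.259 for means of log2 values. The balance over ciliary sums moved from 0.785 to 1.01 for means of log2 values. Counts of calls moved by over 1.5 times as follows, and the cause was not tested. Higher transport kinesins numbered 5 under scaling to the same total, against 3. The 1 lower ciliary kinesin, Kif9, became 0 with a replicate block, under quantile normalization, cyclic loess and scaling to the same total, with pseudocounts of 0.1 and 10, without a filter, with a filter of 10 (which removes the gene) and in 4 fits without 1 library (range 0 to 1). Higher other kinesins numbered 2 under quantile normalization, under cyclic loess and without rib tissue replicate 3 (range 1 to 2), and lower ones 1 under scaling to the same total. Higher light chain and adaptor genes, 5, became 3 with a replicate block, median scaling and no intensity trend, 8 under quantile normalization and scaling to the same total, 2 under cyclic loess and 3 to 5 without single libraries. Intraflagellar transport genes numbered 7 higher and 7 lower under cyclic loess and 2 lower under scaling to the same total, and lower dynein genes 2 under quantile normalization and scaling to the same total.

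Signs turned for Kif5a under quantile normalization (0.81) and cyclic loess (0.21), for Kif9 likewise (1.64 and 1.10), for Kif21a under median scaling (-0.023) and without RCS cells replicate 1 or rib tissue replicates 1 or 2 (-0.093 to 0.241 over single libraries left out), for Kifc3 under median scaling (-0.043), cyclic loess (-0.073) and without RCS cells replicate 1 or rib tissue replicate 2 (-0.104 to 0.101), and for Kif3a under cyclic loess (-0.106) and array weights (-0.023). Among partners they turned for Trak2 under median scaling (-0.031) and without rib tissue replicates 2 or 3 (-0.028 to 0.091), Ift172 under quantile normalization (0.013), scaling to the same total (0.279) and without rib tissue replicate 1 (-0.166 to 0.025), Dync1h1 under quantile normalization (0.26) and Pafah1b1 under quantile normalization (0.035) and scaling to the same total (0.048). Over all genes 7785 were higher and 5522 lower under quantile normalization, against 5536 and 7324.

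With the replicate number as a block, 30 of 32 kinesin calls were kept and 1 was gained, with 22 higher and 9 lower. Deviations of same-numbered libraries correlated at 0.0638, -0.0764 and 0.047, so the numbers were not taken to pair the libraries. Without the second Kif22 entry, an alternative chosen after seeing the data, 12 mitotic kinesins were higher. Depth limits Kif6, Kif9, Kif5a and the second Kif22 entry, whose levels are low.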

Other observations

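Kinesins that the table lists under other symbols lay outside the naming rule and were found through their Entrez identifiers. Kif17, the homodimeric kinesin-2 of cilia and dendrites, is listed as RGD1562511 and stood at 3.81, 3.02 and 3.54 normalized counts in RCS cells and 4.17, 4.10 and 2.0 in rib tissue, where the groups overlapped. Kif28p, listed as RGD1559696, stood at 12.97, 14.9 and 13.3 in RCS cells and 3.22, 9.19 and 4.86 in rib tissue, with no overlap and with rib replicate 2 the highest of its group. No entry was matched to Kif1b by symbol or Entrez identifier. The list of transport kinesins named it, so the transport counts, shares and ratios lack it.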
